A study of Homo sapiens with 6 samples.

Results

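The genes described here encode SEC62 and the protein-conducting channel of the endoplasmic reticulum (ER), 10 genes of the 19990 gene symbols measured. They are the rows whose symbol is SEC62, SEC63, SEC61A1, SEC61B, SEC61G, SSR1, SSR2, SSR3, SSR4 or TRAM1, and all 10 were in the table. The set was built around SEC62 because SEC62 was lower in all 4 siRNA libraries, so the difference of SEC62 from control is given as a description with no test. The other 9 genes entered for their function. RNA was sequenced from A549, a human lung adenocarcinoma cell line, after transfection with TIMM13 siRNA 1 (2 libraries), TIMM13 siRNA 2 (2 libraries) or a non-targeting control siRNA (2 libraries), with TIMM13 knockdown as the labelled genotype of the siRNA groups and WT as that of control. The treatment field of all 6 libraries reads cell differentiation. Nothing in the labels ties the replicates to separate cultures, so p-values measure only the spread between these libraries, which may be technical.

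Proteins that enter the secretory pathway cross the ER membrane through the Sec61 channel, formed by the pore subunit SEC61A1 and the small single-span subunits SEC61B and SEC61G. SEC62 and SEC63 bind the channel and serve mainly precursors that arrive after their translation has ended, with SEC63 recruiting the lumenal chaperone BiP through its J domain. The translocon-associated protein (TRAP) complex, encoded by SSR1 to SSR4, and TRAM1 sit beside the channel and assist the insertion of nascent chains. SEC62 is also a receptor for the autophagy of ER membrane after stress, and its locus lies in a chromosome arm that is often gained in lung cancers.

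The values are a signal per gene made by the authors. No source used here gives their scaling, and the read depth is unknown, so levels are compared between libraries and not between genes. In bulk RNA, fewer cells that express a gene and less of its RNA per cell cannot be told apart. The 2 libraries of siRNA 2 correlated at 0.805 across 11486 tested genes, against 0.895 for siRNA 1 and 0.888 for control (log2 scale, and genes are not independent replicates). The siRNA 2 replicate 1 library correlated at up to 0.84 with a library of another group, above its 0.805 with its own replicate. Column totals were 216524 and 219820 with siRNA 1, 205986 and 299936 with siRNA 2, and 209245 and 209559 in control. TIMM13 itself stood at 2.09 and 1.83 with siRNA 1, at 1.82 and 2.31 with siRNA 2, and at 2.09 and 2.56 in control, and the groups overlapped. By limma the log2 fold change against control was −0.16 with siRNA 1 (SE 0.167, adjusted p = 0.653) and −0.12 with siRNA 2 (SE 0.167, adjusted p = 0.666), so each direction below belongs to libraries labelled with an siRNA. All 7 listed epithelial and A549 markers, among them KRT8 and KRT18, reached a signal of 1 in all 6 libraries, while all 4 alveolar type 2, all 4 leukocyte and all 3 endothelial markers stayed under 1. Of 4 fibroblast markers 3 stayed under 1 and COL1A1 did not: the list summed to 2.57 and 2.15 with siRNA 1, 2.62 and 4.33 with siRNA 2, and 0.826 and 0.876 in control. The part of these differences in the results was not tested.

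The promoter of SEC62 is shown as that of the gene the set was built around, and for the motif search described at the end. It covers 250 bases before and 50 after the RefSeq start (GRCh38.p14, chr3:169966557-169966856, plus strand), and the capitals mark its match to the core of the unfolded protein response element.
SEC62: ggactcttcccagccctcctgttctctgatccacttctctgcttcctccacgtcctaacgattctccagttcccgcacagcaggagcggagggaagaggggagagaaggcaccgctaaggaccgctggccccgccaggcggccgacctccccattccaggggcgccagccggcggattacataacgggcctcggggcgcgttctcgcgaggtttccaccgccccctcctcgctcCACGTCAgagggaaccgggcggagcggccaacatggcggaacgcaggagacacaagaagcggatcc

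SEC62 was the member with the lowest fold change under both siRNAs. Its signal was 0.226 and 0.395 with siRNA 1, 7.12 and 6.21 with siRNA 2, and 36.4 and 36.9 in control. The 3 groups did not overlap, and the siRNA 1 libraries lay lowest. The means were 0.311 ± 0.120 with siRNA 1, 6.67 ± 0.642 with siRNA 2 and 36.6 ± 0.356 in control (SD, n = 2 each), so that siRNA 1 libraries held 0.849% and siRNA 2 libraries 18.2% of the control signal. On the log2(value + 1) scale the differences from control were −4.85 with siRNA 1 and −2.30 with siRNA 2 (SE 0.176 each). Of 11486 genes, 4 had a lower fold change than SEC62 with siRNA 1 and 49 with siRNA 2. All 4 siRNA libraries lay below both control libraries for 14.7% of tested genes, which is the property that chose SEC62.

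The 2 siRNAs differed in SEC62. The choice of genes did not use this contrast, but it used the same siRNA values, so the test is not independent of that choice. SEC62 was lower with siRNA 1 than with siRNA 2 by a log2 fold change of −2.55 (SE 0.176, 95% interval −3.01 to −2.09, limma adjusted p = 0.0232 over 11486 genes). Both siRNA 1 values were under the added 1, so the size depends on it: at a pseudocount of 0.1 it was −4.07 (SE 0.275). SEC62 was called and 0 of the other 9 members were, beside 3.27% of all tested genes called between the siRNAs. Over 14 other settings the log2 fold change kept its sign and was called in 6, with adjusted p from 0.00754 to 0.146. The call ended with equal totals (limma adjusted p = 0.0594), with only the groups compared (0.116), with library weights (0.0918) and with the replicate block (0.115). It also ended when either control library or either siRNA 1 library was left out (limma adjusted p = 0.127, 0.127, 0.120 and 0.146) and held without either siRNA 2 library (0.00754 and 0.0117).

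**Figure D1:**
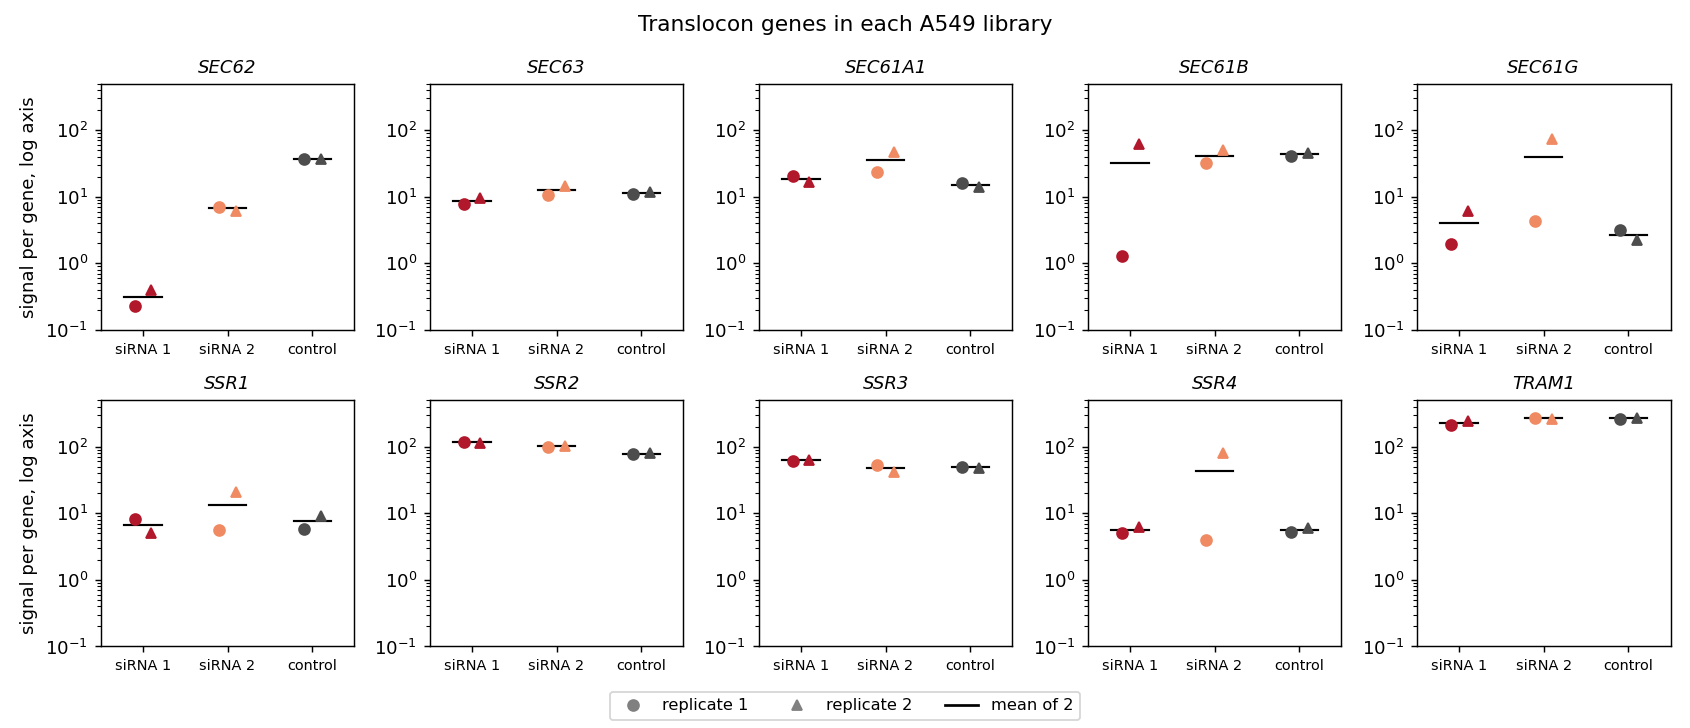
Signal per gene of the 10 translocon genes in each library on a log axis; circles are replicate 1, triangles replicate 2 and bars the mean of 2 libraries. SEC62 stands at 0.311 with siRNA 1, 6.67 with siRNA 2 and 36.6 in control on average, while SEC61B, SEC61G and SSR4 each have 1 siRNA library far from its replicate.

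SEC62 (ENSG00000008952) lies on chromosome 3 at 169966635 to 169998373 of GRCh38, plus strand, and GENCODE release 29 lists 10 transcripts, of which 2 are protein-coding with 1430 and 6568 nt. The nearest tested protein-coding neighbours lay on opposite sides of control, and only GPR160 with siRNA 2 was called. GPR160, an orphan receptor gene that starts 39556 nt downstream, stood at 3.26 and 2.93 with siRNA 1, 3.97 and 3.41 with siRNA 2, and 0.661 and 1.05 in control. All 4 siRNA libraries lay above control, as they did for 18.3% of tested genes. GPR160 rose with siRNA 2 (log2 fold change 1.34, SE 0.176, limma adjusted p = 0.0419) and had a log2 fold change of 1.15 with siRNA 1 (limma adjusted p = 0.0660). The siRNA 2 call held under 3 of 13 alternatives (limma adjusted p from 0.0192 to 0.230) and ended when 1 control or 1 siRNA 1 library was left out. PHC3, a polycomb subunit gene, stood at 4.86 and 4.68 with siRNA 1, 7.88 and 5.37 with siRNA 2, and 9.69 and 8.37 in control. PHC3 lay below both control libraries in all 4 siRNA libraries, a pattern that 14.7% of tested genes shared, and it was not called with either siRNA. The log2 fold change of PHC3 was −0.79 with siRNA 1 (limma adjusted p = 0.158, called in 4 of 14 alternatives, 0.0142 to 0.540) and −0.41 with siRNA 2 (limma adjusted p = 0.319). On the other side SAMD7 was listed at 0 in all 6 libraries, and LRRC31 was at most 0.207 in any library.

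Among the other 9 genes 0 were called with siRNA 1 against control by limma, beside 1.63% of all tested genes, and 1 had an unadjusted p under 0.05, beside 20.5% of all tested genes. With siRNA 2 against control 0 were called, beside 3% of all tested genes, and 1 had an unadjusted p under 0.05, beside 25.7%. With siRNA 1 against control 4 of the 9 had a positive fold change (median −0.01, against 0.05 over all tested genes), and with siRNA 2 6 of the 9 did (median 0.38, against 0.14). All 10 genes passed the filter on low values, SEC62 through its siRNA 2 and control libraries alone.

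SEC63, the partner of SEC62, stood at 7.88 and 9.67 with siRNA 1, 10.6 and 14.4 with siRNA 2, and 11.1 and 11.7 in control. Both siRNA 1 libraries lay below control, while the siRNA 2 libraries lay on either side of it. The share of all tested genes with both libraries of a single siRNA outside the control range was not counted, here or below. The log2 fold change was −0.35 with siRNA 1 (95% interval −0.93 to 0.23, limma adjusted p = 0.458) and 0.11 with siRNA 2 (95% interval −0.47 to 0.69, limma adjusted p = 0.772). The intervals for SEC63 do not reach the size of the SEC62 differences. HSPA5, which encodes BiP, stood at 47.9 and 53.9 with siRNA 1, 68.3 and 200 with siRNA 2, and 50.4 and 31.6 in control. Both siRNA 2 libraries lay above control, replicate 2 far more than replicate 1 (log2 fold change 1.53, SE 0.581, limma adjusted p = 0.199).

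SEC61A1, the pore subunit, stood at 20.5 and 16.9 with siRNA 1, 23.4 and 47.7 with siRNA 2, and 16.3 and 14.0 in control. All 4 siRNA libraries lay above both control libraries, a pattern that 18.3% of tested genes shared. The log2 fold change was 0.28 with siRNA 1 (SE 0.375, limma adjusted p = 0.742) and 1.10 with siRNA 2 (SE 0.375, limma adjusted p = 0.167). Against control, siRNA 2 replicate 1 was higher by 0.60 and replicate 2 by 1.59 log2 units.

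Each single-span subunit of the channel had 1 siRNA library far from its replicate. SEC61B stood at 1.30 and 63.1 with siRNA 1, 31.8 and 50.2 with siRNA 2, and 40.4 and 46.0 in control. siRNA 1 replicate 1 alone was low, a 48.4-fold difference from replicate 2. SEC61G stood at 1.93 and 6.19 with siRNA 1, 4.32 and 74.6 with siRNA 2, and 3.20 and 2.22 in control. siRNA 2 replicate 2 alone was high, 17.3 times its replicate. Neither gene was called against control by limma. For SEC61B the log2 fold change was −1.86 with siRNA 1 (adjusted p = 0.601) and −0.11 with siRNA 2 (adjusted p = 0.971), and for SEC61G it was 0.32 with siRNA 1 (adjusted p = 0.937) and 2.45 with siRNA 2 (adjusted p = 0.324).

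In the TRAP complex SSR2, the beta subunit, was the member with the closest replicates. It stood at 118 and 115 with siRNA 1, 100.1 and 104 with siRNA 2, and 77.5 and 79.2 in control. All 4 siRNA libraries lay above both control libraries, as for 18.3% of tested genes, at 149% of the control mean with siRNA 1 and 130% with siRNA 2. The log2 fold change was 0.57 with siRNA 1 (SE 0.151, 95% interval 0.17 to 0.96, limma adjusted p = 0.138) and 0.38 with siRNA 2 (SE 0.151, limma adjusted p = 0.206). SSR2 was not called in this fit, where the spread is taken over all 6 libraries. With only the siRNA 1 and control libraries fitted, SSR2 was called higher with siRNA 1 (limma adjusted p = 0.0183). In that setting 20.8% of all tested genes were called, and SSR2 was 1 of them. Over 14 alternatives its adjusted p ran from 0.00865 to 0.542.

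SSR3, the gamma subunit, stood at 61.0 and 64.1 with siRNA 1, 53.0 and 41.9 with siRNA 2, and 49.9 and 48.3 in control. Both siRNA 1 libraries were above control, and the siRNA 2 libraries lay on either side of it. The log2 fold change was 0.34 with siRNA 1 (SE 0.184, limma adjusted p = 0.386) and −0.06 with siRNA 2 (limma adjusted p = 0.859), and between the siRNAs it was 0.40 (95% interval −0.08 to 0.88, limma adjusted p = 0.265). With only the siRNA 1 and control libraries in the fit, SSR3 was called higher with siRNA 1 (limma adjusted p = 0.0435, and 0.0392 to 0.793 over 14 alternatives). That fit called 20.8% of all tested genes.

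SSR1, the alpha subunit, stood at 8.31 and 4.98 with siRNA 1, 5.64 and 20.8 with siRNA 2, and 5.90 and 9.26 in control. The 3 groups overlapped, and siRNA 2 replicate 2 was the highest. SSR4, the delta subunit, stood at 5.05 and 6.17 with siRNA 1, 3.97 and 81.4 with siRNA 2, and 5.27 and 6.01 in control. The siRNA 1 and control libraries overlapped, and siRNA 2 replicate 2 was 20.5 times its replicate. Without siRNA 2 replicate 2 the log2 difference of SSR4 from control with siRNA 2 was −0.42, against 1.61 with both libraries (SE 1.37, limma adjusted p = 0.481).

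TRAM1, which contacts nascent chains as they enter the membrane, stood at 211 and 242 with siRNA 1, 266 and 265 with siRNA 2, and 258 and 273 in control. Both siRNA 1 libraries lay just below control, and the siRNA 2 libraries lay within its range. The log2 fold change was −0.23 with siRNA 1 (95% interval −0.67 to 0.21, limma adjusted p = 0.523) and 0.00 with siRNA 2 (95% interval −0.44 to 0.44, limma adjusted p = 0.999).

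**Figure D2:**
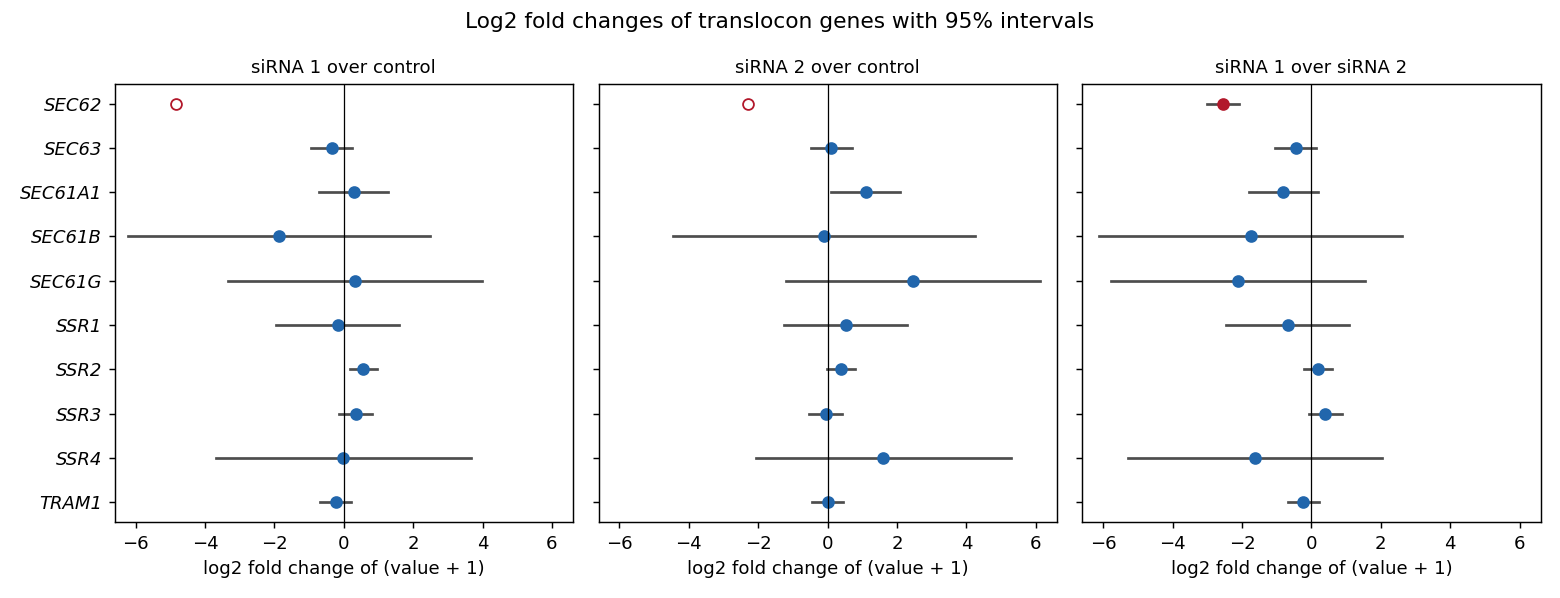
Log2 fold changes of log2(value + 1) for each gene (points) with 95% intervals from the fit (lines); open circles mark SEC62 against control, which has no test. The interval of SEC62 between the siRNAs runs from −3.01 to −2.09, while those of SEC61B, SEC61G and SSR4 span several log2 units on either side of 0.

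Replicates at least 10-fold apart on the value + 1 scale made up 1.31% of tested genes with siRNA 1, 1.99% with siRNA 2 and 1.39% in control. Among the 10 members these were SEC61B with siRNA 1, SEC61G and SSR4 with siRNA 2, and 0 in control. SEC61B has 3 annotated transcripts, SEC61G 7 and SSR4 12, and the members without such a gap have from 5 (TRAM1) to 18 (SSR2). A link between transcript number and these gaps was not tested. siRNA 2 replicate 2 was the library with the highest SEC63, SEC61A1, SEC61G, SSR1 and SSR4 values of the 6, and without it the log2 differences of siRNA 2 from control were −0.10 for SEC63, 0.60 for SEC61A1, 0.53 for SEC61G, −0.34 for SSR1 and −0.42 for SSR4. SEC62 stood as low in this library as in its replicate, at −2.38 and −2.21 from control. Scaling the libraries to equal totals gave a median over all tested genes of −0.06 with siRNA 2, against 0.14 unscaled. Relative to the median of 0.14, SEC62 stood at −2.44, SEC61A1 at 0.96, SSR2 at 0.24, SEC63 at −0.03 and TRAM1 at −0.14.

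The wider machinery of ER targeting was described from 9 lists with 65 genes in the table, of which 62 were tested. With siRNA 1, 0 of 62 were called by limma, beside 1.63% of all tested genes, and 11 had an unadjusted p under 0.05, beside 20.5% (40 positive fold changes, median 0.13 against 0.05 over all genes). With siRNA 2, 0 were called higher and 1 lower, beside 3% of all tested genes called, and 15 had an unadjusted p under 0.05, beside 25.7%. Of the 62, 45 had a positive fold change (median 0.46 against 0.14). The 1 called was GET1, which encodes a membrane receptor subunit for tail-anchored proteins. GET1 stood at 19.1 and 21.0 with siRNA 1, 11.8 and 9.78 with siRNA 2, and 28.6 and 27.5 in control. The groups did not overlap, and siRNA 2 was lowest (log2 fold change −1.31, SE 0.175, limma adjusted p = 0.0427; −0.47 with siRNA 1, limma adjusted p = 0.238). The call held under 4 of 14 alternatives (limma adjusted p from 0.00748 to 0.240) and ended when 1 control or 1 siRNA 1 library was left out. Without siRNA 2 replicate 1, 35 of the 62 (56.5%) were called with siRNA 2, beside 40.6% of all tested genes, and without replicate 2 it was 11 (17.7%), beside 15.3%, the lone siRNA 2 library then being assumed to vary like the other groups. All 4 siRNA libraries lay above control for 16 of the 62 (25.8%, against 18.3% of all tested genes) and below it for 5 (8.06%, against 14.7%).

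Between the siRNAs 1 of the 62 genes was called higher with siRNA 1 and 1 lower, a share near the 3.27% of all tested genes called. SRPRA, the alpha subunit of the signal recognition particle receptor, stood at 34.7 and 31.8 with siRNA 1 and 13.4 and 14.1 with siRNA 2, and at 20.4 and 24.1 in control. It was higher with siRNA 1 than with siRNA 2 by 1.22 (SE 0.170, limma adjusted p = 0.0443), with control between them. EMC7, a subunit of the ER membrane protein insertase, stood at 24.5 and 25.9 with siRNA 1 and 76.7 and 96.4 with siRNA 2, and at 52.6 and 54.5 in control. It was lower with siRNA 1 than with siRNA 2 by a log2 fold change of −1.73 (SE 0.183, limma adjusted p = 0.0339), again with control between them. The call held under 4 of 14 alternatives for SRPRA and 5 of 14 for EMC7 (limma adjusted p from 0.0151 to 0.260 and from 0.00737 to 0.206), and both calls ended when 1 control or 1 siRNA 1 library was left out.

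No other gene of the lists was called in these comparisons. With siRNA 1, STT3B, SGTA, SIL1 and TRAM2 were each called with the groups compared alone and with library weights. They were not the only ones: 27.4% and 25.8% of the 62 listed genes were called in these settings. Of all tested genes 20.8% and 26.1% were. STT3B, the oligosaccharyltransferase subunit that acts mostly after translocation, averaged 41.1 ± 0.319 with siRNA 1, 71.2 ± 3.84 with siRNA 2 and 71.5 ± 0.997 in control (SD, n = 2 each, limma adjusted p = 0.0858 for siRNA 1). TRAM2, a relative of TRAM1, averaged 8.59 ± 0.885 with siRNA 1, 6.12 ± 1.84 with siRNA 2 and 14.3 ± 1.44 in control (limma adjusted p = 0.236 with siRNA 1 and 0.0847 with siRNA 2). SGTA, a cochaperone of tail-anchored protein targeting, averaged 23.0 ± 1.95 with siRNA 1, 20.2 ± 1.13 with siRNA 2 and 11.5 ± 0.770 in control (limma adjusted p = 0.0789 with siRNA 1 and 0.0836 with siRNA 2). SIL1, the nucleotide exchange factor of BiP, averaged 6.12 ± 0.587 with siRNA 1, 7.50 ± 4.12 with siRNA 2 and 2.55 ± 0.223 in control (limma adjusted p = 0.240 with siRNA 1 and 0.153 with siRNA 2).

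Among the other receptors of ER autophagy, a role SEC62 shares, 0 of 8 were called by limma with either siRNA, and 1 of 8 with siRNA 1 and 3 of 8 with siRNA 2 had an unadjusted p under 0.05, beside 20.5% and 25.7% of all tested genes. CALCOCO1 stood at 1.72 and 1.40 with siRNA 1, 4.50 and 7.70 with siRNA 2, and 1.30 and 1.25 in control. Both siRNA 2 libraries lay above all the others (log2 fold change 1.60, SE 0.261, limma adjusted p = 0.0558). RETREG1 stood at 0.848 and 1.08 with siRNA 1, 0.971 and 0.920 with siRNA 2, and 2.15 and 1.63 in control. All 4 siRNA libraries were below control, as for 14.7% of tested genes (log2 fold change −0.55 with siRNA 1, limma adjusted p = 0.142, and −0.56 with siRNA 2, limma adjusted p = 0.113).

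**Figure D3:**
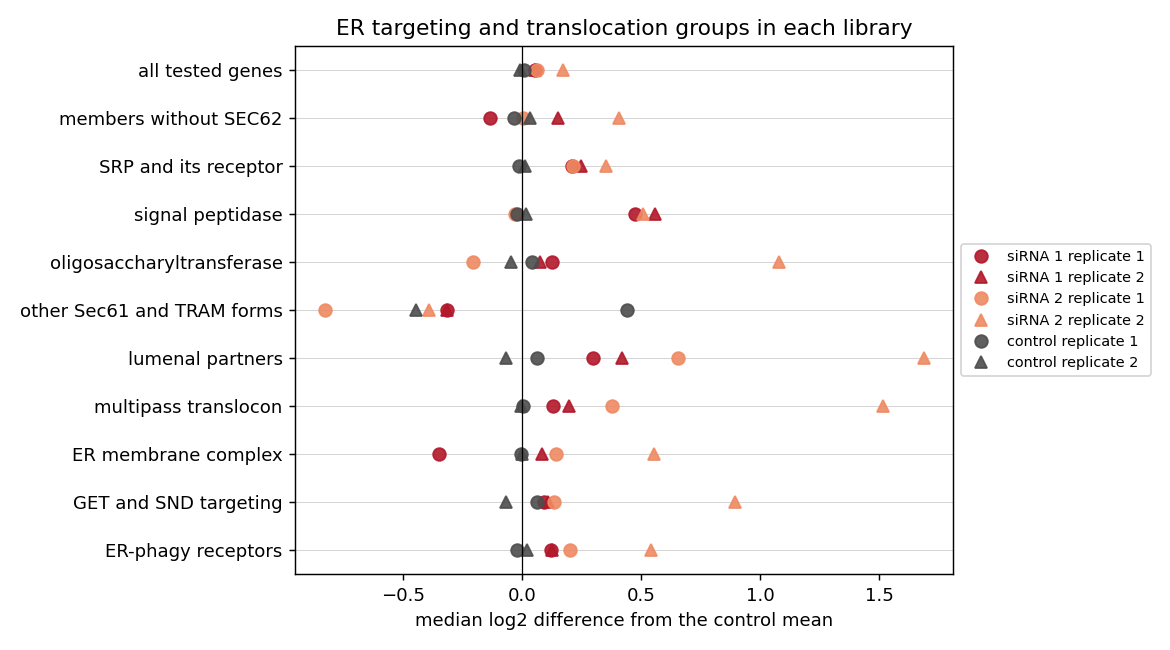
Median log2 difference from the control mean, log2(value + 1), for each list of ER targeting genes in each library; the top row is the median of all tested genes. For the multipass translocon and the lumenal partners, siRNA 2 replicate 2 stands at 1.52 and 1.69, against 0.38 and 0.66 in replicate 1.

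The medians of several lists differed between the siRNA 2 replicates. In siRNA 2 replicate 2 the oligosaccharyltransferase list had a median of 1.08 and the multipass translocon list 1.52, against −0.20 and 0.38 in replicate 1. With siRNA 1 the same lists had medians of 0.13 and 0.13 in replicate 1 and 0.08 and 0.20 in replicate 2. The signal peptidase list was alike in both siRNA 1 libraries, at 0.47 and 0.56, and stood at −0.03 and 0.51 in the siRNA 2 libraries. The list of the signal recognition particle and its receptor lay close together in all 4, at 0.21 and 0.25 with siRNA 1 and 0.21 and 0.35 with siRNA 2. The ER membrane complex list differed between the siRNA 1 libraries too, at −0.35 and 0.09, and stood at 0.15 and 0.55 with siRNA 2.

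The 6 genes whose profile over the 6 libraries was most like that of SEC62 were chosen by the smallest root mean square difference of their log2(value + 1) profiles, each taken relative to its control mean, so their values are a description. Genes with clone-style, LOC, LINC, antisense or microRNA names were left out of this ranking. The closest was CHAC1, which breaks down glutathione and is induced by amino acid and ER stress, at a difference of 0.928 log2 units. It stood at 0.732 and 1.93 with siRNA 1, 2.18 and 2.53 with siRNA 2, and 24.2 and 20.1 in control. KBTBD11-OT1, a non-coding transcript, was listed at 0 in all 4 siRNA libraries and stood at 7.73 and 8.30 in control. TBC1D20, which encodes a GTPase-activating protein for RAB1, shared the low siRNA 1 values (2.41 and 1.16, with 27.5 and 19.2 with siRNA 2 and 30.8 and 29.4 in control).

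The other 3 matched SEC62 less evenly. SYPL1, a vesicle membrane protein, stood at 9.12 and 10.4 with siRNA 1, 3.53 and 24.6 with siRNA 2, and 88.4 and 95.9 in control. CCNC, the cyclin of the Mediator kinase module, stood at 1.98 and 0.460 with siRNA 1, 2.43 and 32.9 with siRNA 2, and 24.0 and 24.4 in control. The readthrough TMED7-TICAM2 shares exons with its parent genes, so its signal is uncertain; it was listed at 0 in both siRNA 1 libraries, and stood at 11.5 and 0.803 under siRNA 2 and at 9.54 and 10.3 in control. Of the other translocon genes the closest was SEC61B, at a difference of 2.53 log2 units, and the farthest SEC61G, at 4.23. SEC61B was far below control in siRNA 1 replicate 1 alone, at −4.26 log2 units from the control mean, against 0.54 in replicate 2. With siRNA 2 it stood at −0.43 and 0.21.

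**Figure D4:**
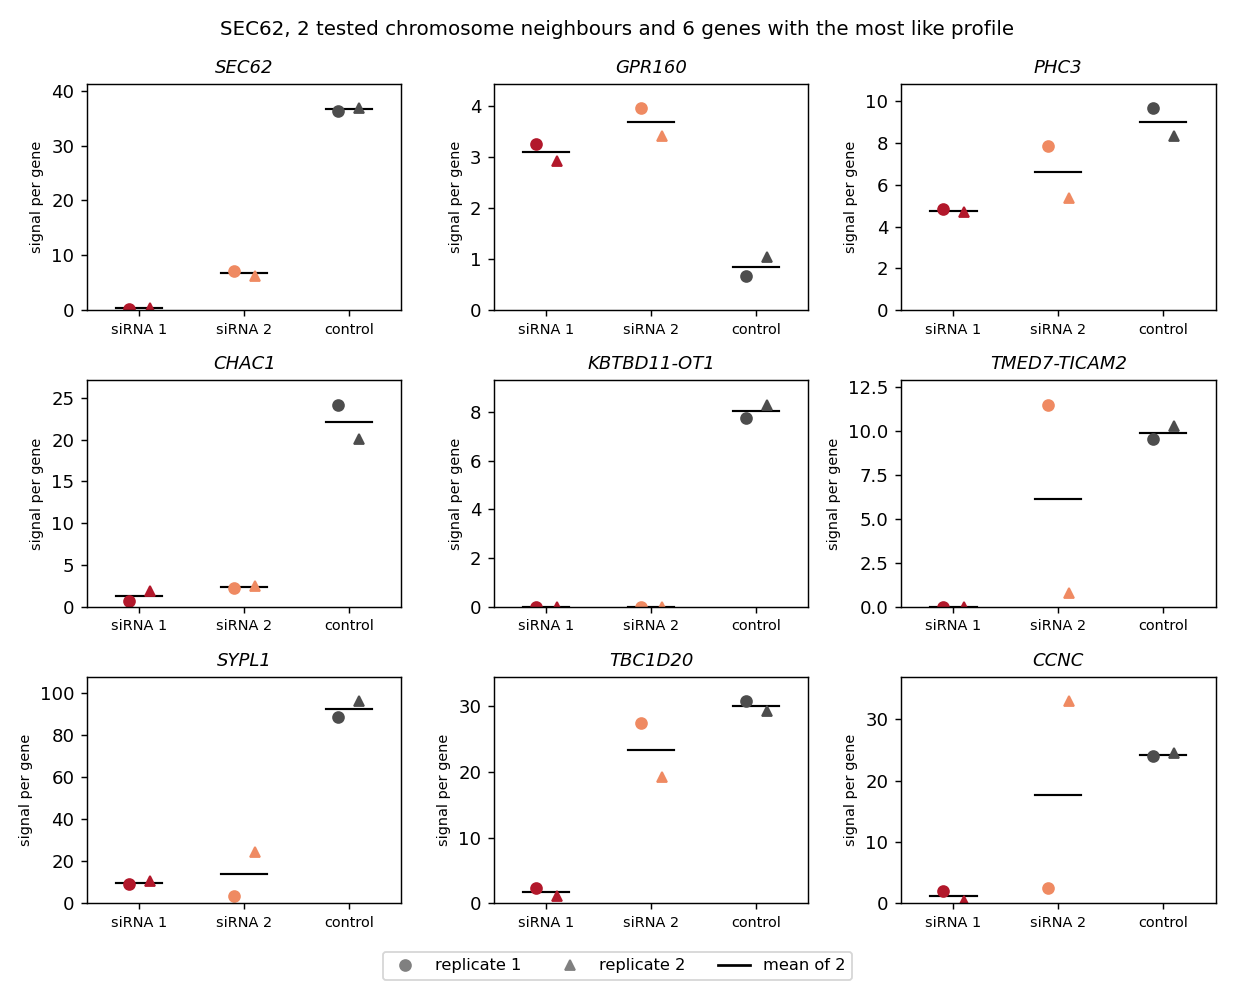
Signal per gene of SEC62, its tested neighbours GPR160 and PHC3, and the 6 genes with the most like profile; circles are replicate 1, triangles replicate 2 and bars the mean of 2 libraries, on linear axes from 0. CHAC1 and KBTBD11-OT1 are low in all 4 siRNA libraries, as SEC62 is, while GPR160 is higher in all 4.

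RefSeq promoters were found for 9 of the 10 genes (GRCh38.p14), 250 bases before to 50 after the start. A set of 3 motifs of the unfolded protein response were searched on both strands: ERSE (CCAAT, any 9 bases, CCACG), ERSE-II (ATTGG, any base, CCACG) and the 7-base core of the unfolded protein response element (TGACGTG), whose first bases are also the half-site of cyclic AMP response elements. ERSE and ERSE-II were in 0 of the 9 promoters, and in 0.161% and 0.118% of the 9300 promoters of tested genes. The core was in 4 of the 9, those of SEC62, SEC61A1, SSR3 and SSR4, and in 2.44% of the promoters of tested genes and 1.97% of all 35116 promoters. It began 16 bases before the start in SEC62, 1 in SEC61A1, 40 in SSR3 and 128 in SSR4, on the minus strand of the gene except in SEC61A1. These RefSeq starts need not be the outermost of the gene. The windows of SEC61A1, SSR3 and SSR4 lie inside the GENCODE gene spans, while that of SEC62 reaches beyond its span. The other 3 matches are shown for comparison with SEC62, with the match in capitals and 10 bases on either side (SEC61A1 chr3:128052426-128052452, SSR3 chr3:156554149-156554175, SSR4 chrX:153794530-153794556).
SEC61A1: gggctagcacTGACGTGtctctcggcg
SSR3: tgataacagcCACGTCAgcaaggaaac
SSR4: agggaggggcCACGTCAgtgctgccag

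Of the genes that share this core, SEC62 was chosen for being lower, so its sign is not a result. SEC61A1, SSR3 and SSR4 were not called against control with either siRNA, and a link of the core to these values was not tested. The log2 fold changes with siRNA 1 were −4.85 for SEC62, 0.28 for SEC61A1, 0.34 for SSR3 and −0.01 for SSR4. With siRNA 2 they were −2.30 for SEC62, 1.10 for SEC61A1, −0.06 for SSR3 and 1.61 for SSR4. A match is a description of the letters in this window and not of a factor's binding.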

How the data were processed

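Poly(A)-selected, strand-specific RNA sequencing was made from 6 A549 libraries, per the labels' protocols. Trim Galore, STAR, featureCounts and hg38 appear, without versions, in the submitters' processing notes. The authors deposited a signal per gene symbol, scaled in a way not given in the sources used here, with unknown depth, so no counting interval is given. A gene was tested where 2 or more libraries had a value of 1 or more (11486 of 19990), and log2(value + 1) was fitted with 1 term per group over all 6 libraries (3 residual degrees of freedom) with limma 3.58.1 in R 4.3.3 (eBayes, trend and robust). Calls were made under 0.05 after Benjamini-Hochberg adjustment. An exact permutation test of 2 against 2 libraries cannot go below p = 0.333 two-sided and was not used. The fit was tested on simulated data.

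The members and lists were chosen with earlier results of these data known. The genes named are the 10 members, TIMM13, called list genes or the smallest p in each list, 6 genes most like SEC62, and its 2 nearest coding neighbours on each side. HSPA5 was named after its values were seen. Not all genes the rule takes are described. GENCODE release 29 on GRCh38 gave coordinates. Alternatives were another pseudocount, filters, scalings, library weights, a replicate block, the compared groups alone, and leaving out each library.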

Additional observations from a re-analysis of the deposited data

Results flagged for a closer look

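SEC62 was marked because the 2 siRNAs differed in it by the fit's own contrast: the log2 fold change of siRNA 1 against siRNA 2 was −2.55 (limma adjusted p = 0.0232), with both siRNA 1 libraries below both siRNA 2 libraries. The choice of SEC62 used the same siRNA values, so this test is not independent of it, and the call held under 6 of 14 alternatives. SRPRA and EMC7 were marked by the same contrast, with log2 fold changes of 1.22 and −1.73 (limma adjusted p = 0.0443 and 0.0339), SRPRA higher and EMC7 lower in both siRNA 1 libraries.

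SRP72, EMC1 and ATL3 were marked because both libraries of 1 siRNA lay above both control libraries and both of the other lay below them. The share of all tested genes with this pattern was not counted, so the pattern is not known to be unusual. SRP72, a protein of the signal recognition particle, stood at 17.9 and 20.4 with siRNA 1, 24.1 and 33.2 with siRNA 2, and 24.1 and 23.4 in control, and its log2 fold change of siRNA 1 against siRNA 2 was −0.55 (limma adjusted p = 0.216). EMC1, of the ER membrane complex, stood at 7.51 and 6.88 with siRNA 1, 10.98 and 14.9 with siRNA 2, and 9.55 and 10.1 in control, with a log2 fold change of −0.75 (limma adjusted p = 0.125). ATL3, an ER-shaping GTPase and ER autophagy receptor, stood at 38.4 and 40.1 with siRNA 1, 26.8 and 17.0 with siRNA 2, and 28.6 and 29.7 in control, with a log2 fold change of 0.85 (limma adjusted p = 0.141). These 3 did not pass the test of the difference.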

How the results depend on the processing

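Over 14 alternatives SEC62 stayed lower with each siRNA than in control and lower with siRNA 1 than with siRNA 2. Its log2 difference from control was −6.51 with siRNA 1 and −2.44 with siRNA 2 at a pseudocount of 0.1, and with siRNA 2 it was −2.50 with upper-quartile scaling and −2.52 with equal totals. Between the siRNAs it was −4.07 at a pseudocount of 0.1, so its size depends on the pseudocount. That contrast was −2.42 with equal totals and −2.55 with only the groups compared, library weights or the replicate block, where it was not called (limma adjusted p = 0.0594, 0.116, 0.0918 and 0.115). Leaving out 1 library gave −2.64 to −2.46.

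In the order siRNA 1 against control, siRNA 2 against control and siRNA 1 against siRNA 2, limma called 187, 345 and 376 of all genes. Upper-quartile scaling called 31, 115 and 79, equal totals 26, 19 and 34, the groups compared alone 2386, 0 and 0, and library weights 3001, 11 and 5. The replicate block called 0, 0 and 0 (2008, 2556 and 2436 at an unadjusted p under 0.05). Without a filter the last 2 counts were 110 and 239, and with a mean of at least 5 they were 224 and 186. Leaving out 1 library gave 0 to 2374, 0 to 4663 and 0 to 4581. Members called (SEC62 left out against control) were 0, 0 and 1, the 1 being SEC62. With siRNA 1 they were 2 of 9 (SSR2 and SSR3, 22.2%) with the groups compared alone or library weights. Of all tested genes 20.8% and 26.1% were called in these 2 settings. Members called between the siRNAs were 0 with equal totals, the groups compared alone, library weights or the replicate block. Leaving out 1 library gave 0 to 2, 0 to 4 and 0 to 5.

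Listed pathway genes called were 0, 1 and 2. With siRNA 1 they were 17 (27.4%) with the groups compared alone and 16 (25.8%) with library weights, beside 20.8% and 26.1% of all tested genes. With siRNA 2 they were 0 without a filter, with either scaling, the groups compared alone, library weights or the replicate block. Between the siRNAs they were 1 without a filter and 0 with either scaling, the groups compared alone, library weights or the replicate block. Leaving out 1 library gave 0 to 16, 0 to 35 and 0 to 31.

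The sign of uncalled members turned in places. SEC63 with siRNA 2 was −0.10 with upper-quartile scaling and −0.12 with equal totals, and −0.10 to 0.31 leaving out 1 library. Leaving out 1 library gave, with siRNA 1, −4.26 to 0.54 for SEC61B, −0.33 to 0.97 for SEC61G, −0.49 to 0.15 for SSR1 and −0.13 to 0.11 for SSR4. With siRNA 2 it gave −0.43 to 0.21 for SEC61B, −0.34 to 1.38 for SSR1, −0.22 to 0.11 for SSR3, −0.42 to 3.64 for SSR4 and −0.041 to 0.041 for TRAM1. Between the siRNAs it gave −4.15 to 0.64 for SEC61B, −1.55 to 0.17 for SSR1 and −3.65 to 0.41 for SSR4. The cause of these changes was not tested. The replicate numbers of different groups did not deviate together (correlations of 0.00, 0.00 and 0.05 across genes). The labels do not say whether libraries with the same number share a batch, so whether the replicate block is apt is not known.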
